A study of Mus musculus with 18 samples.

Results

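The 67 mouse genes described here encode proteins of the cytosolic ribosome. They are all genes whose symbol begins with Rpl or Rps followed by a number, or is Rpsa, Rplp0, Rplp1 or Rplp2, without the Rps6k kinases and the entries ending in -ps. They make up 67 of the 22180 genes tested, 25 of the small subunit and 42 of the large subunit, including the paralog genes such as Rpl3l and 2 loci that the reference annotation lists as pseudogenes (Rpl6l and Rps4l). Expression was measured on Affymetrix arrays in NaF, a mouse mammary carcinoma cell line, in 6 groups of 3 arrays. Treated cells received retinoic acid, the synthetic retinoic acid receptor agonist TTNPB, or the PPARδ agonist GW1516, each at 1 µM for 6 hours in DMEM with 10% charcoal-treated FBS, and their shared control cells were kept in the same medium without ligand. All 12 of these cultures had been in charcoal-treated serum for 48 hours before the ligand step. Further cells received palmitate, a saturated fatty acid, at 10 µM for 6 hours in full medium, with untreated cells in full medium as their control. All groups are a single cell line, and the labels do not say whether replicates were separate cultures, so the p-values reflect array-to-array spread alone, which may be technical.

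A ribosome holds 1 copy of nearly every ribosomal protein, and cells keep the amounts of these proteins in step with each other and with ribosomal RNA. Much of that control acts on translation: many ribosomal protein mRNAs begin with a cytosine followed by a run of pyrimidines, the terminal oligopyrimidine (TOP) motif, through which mTORC1 and LARP1 set how actively they are translated. Transcript levels are therefore only one layer of ribosomal protein supply. Several members have further known roles. RPL5 and RPL11 bind MDM2 and restrain the breakdown of p53, RPS6 is the classical substrate of the S6 kinases, and RPS3 also takes part in DNA repair.

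The promoter table of RefSeq (GRCm38.p6) held 52 of the 67 genes. A C followed by at least 4 pyrimidines stood at the annotated start of 11 of the 52 (21.2%), against 3.01% of 27025 genes. The letters CCGGAAG or CTTCCGG, the core bound by ETS-family factors such as GABPA, occurred on either strand within the 300 bases around the start in 23 of the 52 (44.2%), against 9.93% of all genes. The letters AAGATGGC or GCCATCTT, a YY1 core, occurred in 3 of the 52 (5.77%), against 3.19%. The start regions below show 3 genes whose annotated start opens such a pyrimidine run and the 2 members that passed the test in the comparisons, Rps23 and Rps3. Each is 15 bases before and 15 bases from the annotated start, with the pyrimidine run in capitals.
Rps6: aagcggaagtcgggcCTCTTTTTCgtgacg
Rpl15: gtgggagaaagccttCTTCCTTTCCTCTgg
Rpl28: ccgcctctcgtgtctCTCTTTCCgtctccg
Rps23: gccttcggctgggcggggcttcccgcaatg
Rps3: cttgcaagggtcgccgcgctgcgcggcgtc
They lie at chr4:86857353-86857382 (minus strand) for Rps6, chr14:18270972-18271001 (minus) for Rpl15, chr7:4792950-4792979 (plus) for Rpl28, chr13:90923107-90923136 (plus) for Rps23 and chr7:99483695-99483724 (minus) for Rps3. In Rps23 and Rps3 no run opened at the annotated base, which says only that these letters do not stand at that one position. The 250 bases upstream of both genes are shown because they are the promoters of the 2 members that passed the test; neither stretch holds the ETS letters.
Rps23 upstream: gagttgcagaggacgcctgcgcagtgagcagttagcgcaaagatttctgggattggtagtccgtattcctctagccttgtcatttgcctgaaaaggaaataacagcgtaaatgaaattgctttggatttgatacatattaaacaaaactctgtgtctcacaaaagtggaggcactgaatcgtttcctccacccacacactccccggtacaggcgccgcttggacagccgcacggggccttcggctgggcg
Rps3 upstream: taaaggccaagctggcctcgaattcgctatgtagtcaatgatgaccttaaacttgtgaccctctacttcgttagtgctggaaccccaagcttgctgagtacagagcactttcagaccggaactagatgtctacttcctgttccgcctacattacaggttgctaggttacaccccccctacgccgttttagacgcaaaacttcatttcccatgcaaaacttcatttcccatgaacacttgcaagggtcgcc
These are chr13:90922872-90923121 on the plus strand and chr7:99483710-99483959 on the minus strand.

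All values are log2 values as deposited. Array medians lay between 1.06 and 1.32 in charcoal-treated serum and between 0.473 and 0.548 in full medium, so levels were not compared between the media. GW1516 replicate 3 stood apart: its values lay 0.231 on average from its group mean, against 0.0816 to 0.145 on the other 17 arrays, and its correlation with the other GW1516 arrays was 0.981 to 0.982, against 0.993 or more for all other replicate pairs. As a background level, the 95th percentile over 1394 receptor genes for odours and pheromones, which these cells are not expected to use, was computed in each group from their means; it was at most 1.31 in charcoal-treated serum and 0.63 in full medium. Of the 7 epithelial markers measured, Krt18 (8.02 to 8.30 with the ligands, 7.99 in charcoal controls), Cldn3, Cdh1, Cldn4 and Krt8 were above background in all 6 groups, the last at only 1.44 to 1.85, and Krt19 and Epcam in 4 groups. Of markers of other cell types, Cdh5 (endothelial, 7.29 to 8.90), Pdgfra (fibroblast, 2.26 to 5.65) and Cd68 (leukocyte, 0.924 to 1.82) were above background in all 6 groups. The leukocyte marker Ptprc, the basal marker Trp63, the fibroblast marker Pdgfrb and the adipocyte marker Plin1 were above it in 4 groups, and Acta2, Col1a1 and Col1a2 in 1. Pecam1, Kdr, Thy1, Dcn, Krt14, Cd3e, Adgre1, Adipoq and Fabp4 were above it in none. Their part in the results was not tested.

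Most ribosomal protein genes read above background, here taken as a mean over the arrays of a medium above the highest group background of that medium. In charcoal-treated serum these were 59 of the 67 (88.1%, against 48.7% of all genes), and in full medium 58 (86.6%, against 45.0%). The brightest probe set stood for a gene, and 25 of the 67 had more than 1 to choose among, against 1082 of all 22180 genes, which raises the family's readings. Among genes with 1 probe set, 35 of 42 members were above background in charcoal-treated serum (83.3%, against 47.7% of 21098 genes), and 33 in full medium (78.6%, against 44.0%). The median reading in charcoal-treated serum was 6.36 over the 67 but 3.03 over those 42. In charcoal-treated serum the values ran between 0.58 for Rpl10l, a paralog known for its role in the testis, and 12.40 for Rpl41, which encodes one of the smallest ribosomal proteins; 27 members read 8 or more and 25 read under 4. A probe set's brightness also depends on its probes, so this order is not an order of transcript amounts.

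Members not above background in charcoal-treated serum were Rpl10l, Rpl11, Rpl17, Rpl30, Rpl32l, Rpl3l, Rps20 and Rps4l. In full medium they were Rpl10l, Rpl17, Rpl30, Rpl32l, Rpl39, Rpl3l, Rplp2, Rps16 and Rps4l. The list mixes paralogs known for expression in few tissues, such as the muscle gene Rpl3l, with core components that every ribosome carries, such as Rpl11, Rpl30 and Rps20. A low reading of such a core gene cannot be taken as a low transcript level. Another 23 symbols of the family had no probe set of their own in the annotation and were not analysed here, among them Rps27a, Rpl10, Rpl36a and Rpl36al; 13 of them share a probe set with other symbols.

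**Figure D1:**
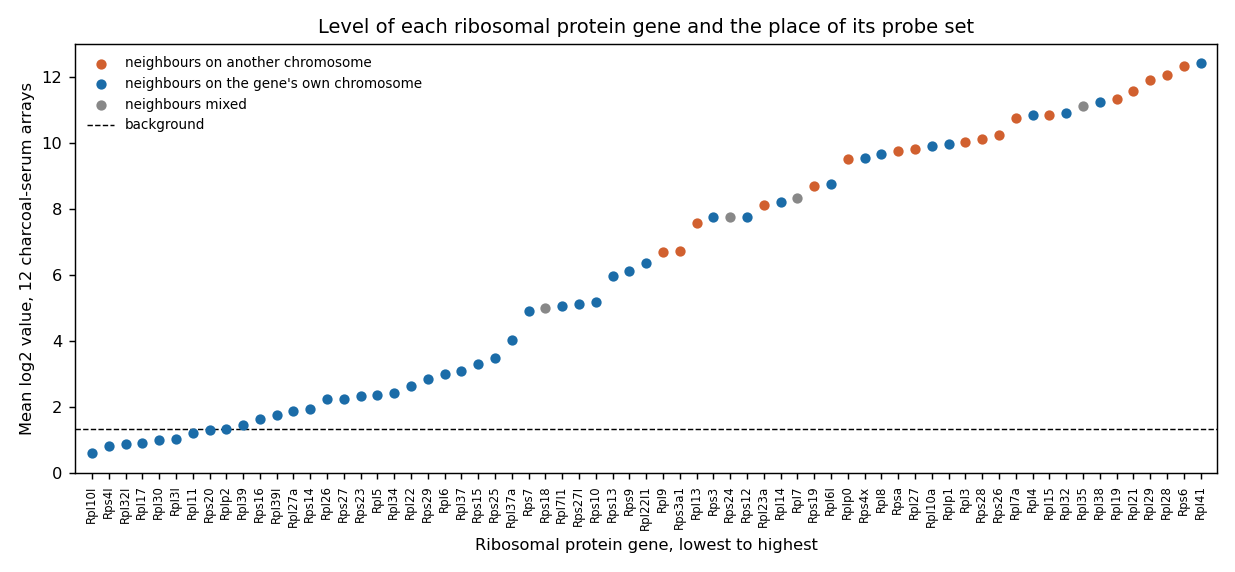
Mean log2 value over the 12 arrays in charcoal-treated serum (vertical axis) for each of the 67 genes, ordered from lowest to highest; the dashed line is the highest group background, 1.31, and colour gives the chromosome of the probe set's neighbours in the array's numbering. The readings span 0.58 to 12.40; each gene is shown by its brightest probe set, so the heights of the colours cannot be compared as transcript amounts.

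Ribosomal protein genes are known for many processed pseudogenes, intronless copies scattered over other chromosomes. Probe sets of this array are numbered along the chromosomes: of 22649 probe sets of other genes with clear neighbours, 99.6% sat among probe sets of their own gene's chromosome, by a criterion set after the data were seen (at least 80% of the 10 neighbours on each side on 1 chromosome). Of the 67 probe sets used for the family, 45 sat among their gene's own chromosome, 18 among another chromosome and 4 had mixed neighbours. Of all 67 members, 19 had probe sets in both places. The files give no probe positions, so whether a probe set reads the gene, a copy or both was not tested. Among the 108 probe sets of the family, some copies carried identical values on every array, namely 6 probe sets for Rps12 and 2 each for Rpl23a and Rps19, so they are not independent readings.

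Retinoic acid moved few ribosomal protein genes past the test (limma, adjusted p under 0.05). These were 2 of the 67 (2.99%, against 5.29% of all genes, 3.82% up and 1.47% down): Rps23, a decoding-centre protein of the small subunit, rose 2.55-fold over the charcoal control, and Rps3, which lines the mRNA entry channel, fell 1.23-fold. The median change over the family was -0.05 on the log2 scale (-0.03 over all genes), and 55 of the 67 differences were smaller than 0.25 in size. For 47 of the 67 the 95% confidence interval stayed within 1.5-fold of no difference. Of the 26 members with a mean of 8 or more over all arrays, a level chosen after values were seen, none passed the test. Their probe sets sat among another chromosome for 14, among the gene's own for 10 and had mixed neighbours for 2. Of these 26, 1 had an unadjusted p under 0.05, against 171 of the 545 genes at that level. Of the 545, 16.9% passed the test. The test pools its spread over the arrays of every group, GW1516 replicate 3 included. With only the groups of the comparison fitted, Rpl28 (adjusted p = 0.0012 by limma), Rps19 (0.00158) and Rpl21 (0.0209) rose. Rpsa (0.0426) fell, and all of these are among the 26. In that fit 8.35% of all genes passed, and whether the contrast with the 545 holds there was not tested.

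**Figure D2:**
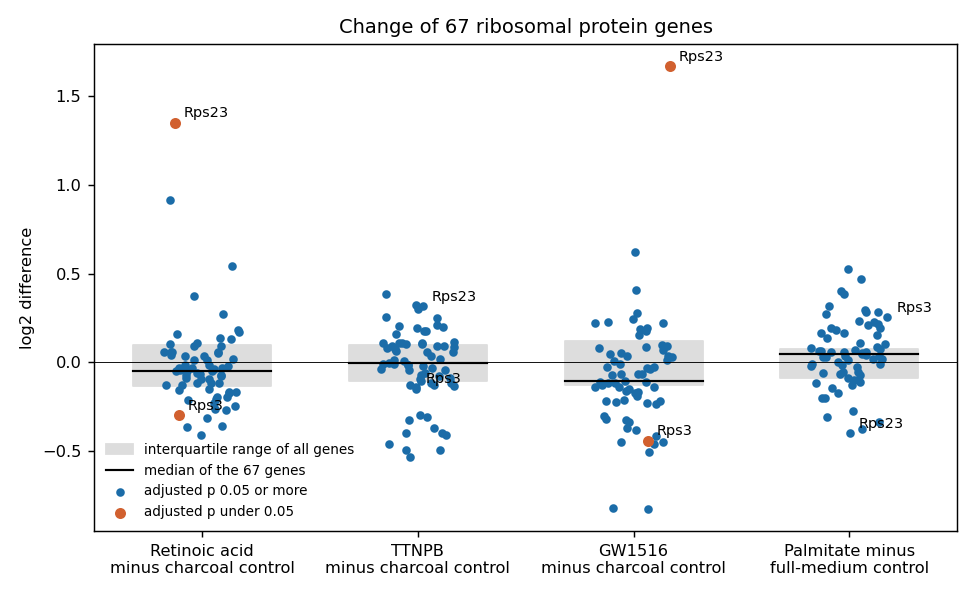
Log2 difference of each of the 67 genes (points) in each ligand or palmitate comparison with its same-serum control; grey boxes span the interquartile range of all 22180 genes, black lines are the family's medians (-0.05 for retinoic acid, -0.00 for TTNPB, -0.11 for GW1516 and 0.05 for palmitate) and orange points passed the test. Rps23 rises clear of the family with retinoic acid (1.35) and GW1516 (1.67).

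Rps23 (probe set 17289031, Entrez 66475) is a protein-coding gene at chr13:90923122-90924732 on GRCm38.p6, with 1 probe set that sits among its own chromosome. It read 2.42, 3.15 and 2.92 with retinoic acid, 2.21, 1.18 and 2.01 with TTNPB, and 3.14, 3.71 and 2.59 with GW1516, against 1.13, 0.84 and 2.47 in charcoal controls. In full medium it read 0.56, 0.38 and 0.71 with palmitate, against 0.70, 0.77 and 1.38 in controls. All GW1516 arrays lay above all controls, the retinoic acid arrays overlapped control replicate 3, and the TTNPB arrays lay among the controls. Control replicates 1 and 2 were under the control background of 1.31, so the fold changes start from a reading that only 1 of 3 control arrays placed above background.

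The log2 difference of Rps23 from the charcoal control was 1.35 ± 0.36 with retinoic acid (SE, adjusted p = 0.0366 by limma), 0.32 ± 0.36 with TTNPB (adjusted p = 0.863) and 1.67 ± 0.36 with GW1516 (adjusted p = 0.0202). With palmitate it was -0.40 against the full-medium control (adjusted p = 1). By size in either direction the GW1516 difference was the second among the 22180 genes of that comparison, and by p-value it ranked 258. The 3 ligand values share the same control arrays. Between ligands the difference was 1.35 for GW1516 minus TTNPB (95% interval 0.58 to 2.12, adjusted p = 0.237) and 1.03 for retinoic acid minus TTNPB (0.27 to 1.80, adjusted p = 0.470). For GW1516 minus retinoic acid it was 0.32 (-0.45 to 1.08, adjusted p = 0.819), so no pair of ligands was told apart. The SE of Rps23 was the fifth highest of the family, and leaving out single arrays ended its call. The adjusted p for retinoic acid became 0.144 without charcoal control replicate 1, 0.207 without replicate 2, 0.169 without retinoic acid replicate 2 and 0.0964 without retinoic acid replicate 3. For GW1516 it became 0.0863 without charcoal control replicate 1, 0.120 without replicate 2 and 0.0610 without GW1516 replicate 2.

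Rps3 (probe set 17493668, Entrez 27050, chr7:99477896-99483709, 1 probe set among its own chromosome) showed a small change on tightly spaced arrays. It read 7.66, 7.66 and 7.67 with retinoic acid, 7.76, 7.83 and 7.84 with TTNPB, and 7.53, 7.54 and 7.48 with GW1516, against 7.87, 7.90 and 8.10 in charcoal controls. All arrays of each ligand lay below all charcoal controls. The log2 difference was -0.30 ± 0.08 with retinoic acid (SE, adjusted p = 0.0277 by limma), -0.15 ± 0.08 with TTNPB (adjusted p = 0.513) and -0.44 ± 0.08 with GW1516 (adjusted p = 0.00455). With palmitate Rps3 read 7.94, 8.11 and 8.01, against 7.76, 7.74 and 7.79 in full-medium controls; the arrays did not overlap, and the difference of 0.25 did not pass the test (adjusted p = 0.205). The retinoic acid call of Rps3 was lost without charcoal control replicate 3 (adjusted p = 0.137) and without any 1 of the retinoic acid arrays (adjusted p = 0.0680 to 0.0983), and both calls were lost with arrays centred on their medians (adjusted p = 0.380 for retinoic acid and 0.0800 for GW1516).

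**Figure D3:**
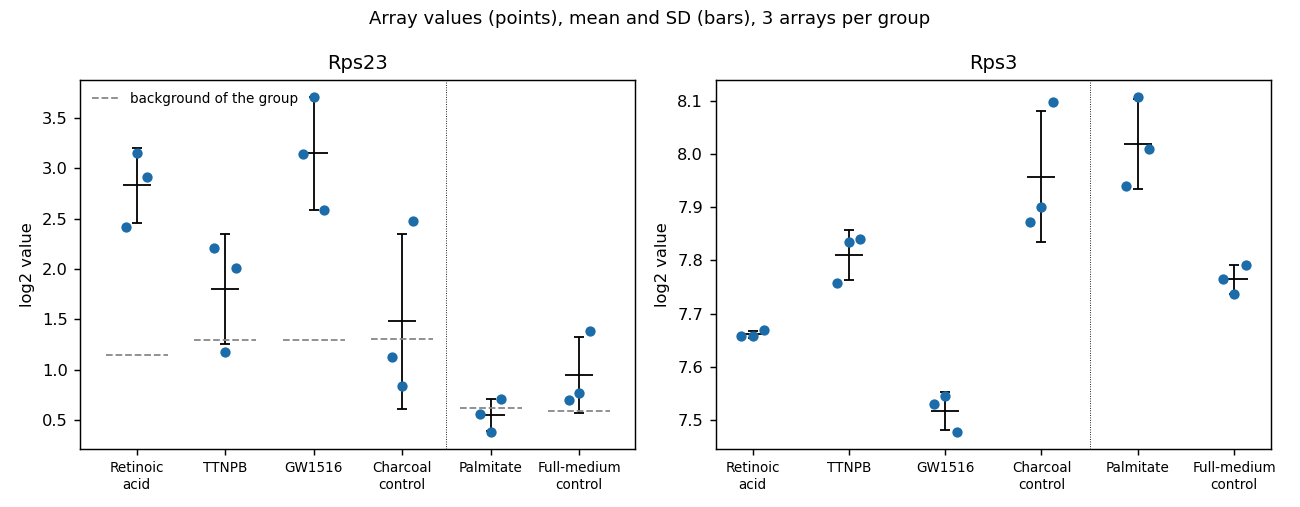
Log2 values of Rps23 (left) and Rps3 (right) on each array, with group mean and SD as bars (n = 3 each); dashed lines give each group's background for Rps23, and a dotted line separates the media. Rps23 is highest with GW1516 and retinoic acid, while 2 of 3 charcoal controls lie under background; Rps3 spans only 7.48 to 8.11.

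Across the 18 arrays, with the mean of each medium taken off, the genes whose values ran most like those of Rps23 were Usp32, a deubiquitinase gene (Pearson r = 0.895), Tab3, an adaptor of the kinase TAK1 (r = 0.888), and Atm, the DNA damage kinase gene (r = 0.884). These are descriptions over arrays that share groups and background. Since the 3 were picked for following Rps23 on these arrays, their differences are given with no test. Tab3 averaged 4.73 ± 0.12 with retinoic acid and 4.72 ± 0.10 with GW1516, against 4.09 ± 0.17 in charcoal controls (SD, n = 3 each). Usp32 differed by 0.46 with retinoic acid and 0.58 with GW1516, and Atm by 0.28 and 0.37.

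The remaining small-subunit members did not pass the test with retinoic acid. Rps14, a gene implicated in a human myelodysplastic syndrome, had the next smallest p: it read 1.78, 1.93 and 1.85 with retinoic acid, 1.86, 1.72 and 1.86 with TTNPB, and 1.78, 1.64 and 1.97 with GW1516, against 2.27, 2.08 and 2.29 in charcoal controls. All 9 ligand arrays lay below the 3 controls, by -0.36, -0.40 and -0.41 on average in that order, at adjusted p of 0.122, 0.158 and 0.0911. Rps19, the gene most often mutated in Diamond-Blackfan anaemia, read 8.91, 8.89 and 8.97 with retinoic acid, against 8.55, 8.64 and 8.47 in controls, a difference of 0.37 (adjusted p = 0.203). Fitted with only the groups of the comparison, Rps19 had an adjusted p of 0.00158 by limma. Rps6 had the steadiest reading of the 67, near the top of their range: 12.31, 12.38 and 12.33 with retinoic acid, against 12.33, 12.31 and 12.34 in controls. Its difference of 0.02 had an SE of 0.03. Its probe set is numbered among chromosome 2, although the gene is on chromosome 4. Rpsa, the laminin receptor precursor, read 9.67, 9.66 and 9.67 with retinoic acid, against 9.80, 9.77 and 9.93 in controls (-0.17, adjusted p = 0.412). Its adjusted p was 0.0426 by limma with only the groups of the comparison fitted.

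With retinoic acid 5 of the 67 had an unadjusted p under 0.05 (7.46%, against 16.4% of all genes). None of the 42 large-subunit members passed the test, while 5.29% of all genes did, and 1 had an unadjusted p under 0.05. That gene, Rpl5, whose protein forms the 5S RNA particle with RPL11, read 3.73, 3.02 and 1.97 with retinoic acid, against 1.85, 1.94 and 2.19 in charcoal controls. The difference of 0.91 ± 0.33 (SE, adjusted p = 0.143 by limma) overlapped between groups, and without retinoic acid replicate 3 it was 1.38 at an adjusted p of 0.0117. Rpl11 lay around background, at 0.88, 1.06 and 1.28 with retinoic acid, against 1.31, 0.88 and 1.84 in controls: its mean was under the background of the retinoic acid group (1.08, against 1.15) and above that of the controls (1.34, against 1.31), and the stalk protein gene Rplp2 stood near it, at 1.21, 1.14 and 1.46 with retinoic acid, against 1.27, 1.09 and 2.14 in controls (-0.23, adjusted p = 0.618). Rplp0 and Rplp1, also of the stalk, differed by -0.04 and -0.02 (adjusted p = 0.875 and 0.979).

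The test set aside, arrays of the groups separated for 15 of the 67 genes with retinoic acid (22.4%, against 24.1% of all genes). Of these 12 lay below the controls (17.9%, against 11.2% of all genes) and 3 above (4.48%, against 12.9%). The interquartile range of the members' differences was -0.15 to 0.06.

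With TTNPB no member passed the test (0 of 67, against 1.26% of all genes), and 6 had an unadjusted p under 0.05 (8.96%, against 11.2%). The median change was -0.00 (-0.00 over all genes). The arrays separated for 14 members (20.9%, against 17.9%), 8 above the controls (11.9%, against 8.83%) and 6 below (8.96%, against 9.11%). The smallest p-values were those of Rps14 and Rpl30, followed by Rpl32, which read 10.98, 11.02 and 11.05 with TTNPB, against 10.85, 10.83 and 10.88 in charcoal controls. Its difference of 0.16 had an adjusted p of 0.301. For 47 of the 67 genes the interval stayed within 1.5-fold of no difference, and for 25 of the 26 bright ones.

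GW1516 gave the same pair of calls, Rps23 up and Rps3 down (2.99%, against 2.57% of all genes, 1.89% up and 0.681% down), set against the same control arrays as retinoic acid. The median change was -0.11 (-0.01 over all genes), and 43 of the 67 differences were negative, against 11614 of 22180 over all genes. At a mean of 8 or more it was 17 of 26 members, against 332 of 545 genes. Array groups separated for 9 members (13.4%, against 16.3%), 4 above the controls (5.97%, against 8.25%) and 5 below (7.46%, against 8.03%). The size of the family's median shift depended on 1 array. Among the 26 bright members the median difference from the control mean was -0.01 in replicate 1, -0.02 in replicate 2 and -0.45 in replicate 3. Replicate 3 was the lowest of its group for 17 of the 26 (65.4%), against 58.3% of all 545 genes as bright. Without it the family's median change was -0.03, against -0.05 over all genes. With replicate 3 kept, 15 members had an unadjusted p under 0.05 (22.4%, against 15.4% of all genes). Of the 15, 11 were lower, against 1628 of 3412 over all genes. With replicate 3 left out, 15 members had an unadjusted p under 0.05 (22.4%, against 17.7%), 8 of them lower, against 2091 of 3929 over all genes.

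The deviation of replicate 3 was large for single members. Rps26 read 10.62, 10.51 and 9.05 with GW1516, against 10.08, 10.22 and 10.30 in charcoal controls. Rplp1 read 9.91, 9.98 and 8.77, against 10.10, 9.98 and 10.10, and Rpl7 read 8.75, 8.39 and 7.12, against 8.47, 8.42 and 8.48. Replicate 3 lay more than 0.5 under the mean of replicates 1 and 2 for 10 of the 26, by up to 1.51 for Rps26, and the other way for Rpl3, by 0.53. Without replicate 3, 6 members passed the test, as did 3.21% of all genes: Rps23 (1.95), Rps19 (0.38), Rps28 (0.36), Rpl28 (0.15) and Rpl21 (0.14) rose and Rps3 fell by 0.42. Quantile normalization within each medium gave 1 rise and 4 falls (Rps3, Rps12, Rps14 and Rps25), while 3.66% of all genes passed, and centring of the arrays gave the rise of Rps23 alone, while 1.2% passed.

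**Figure D4:**
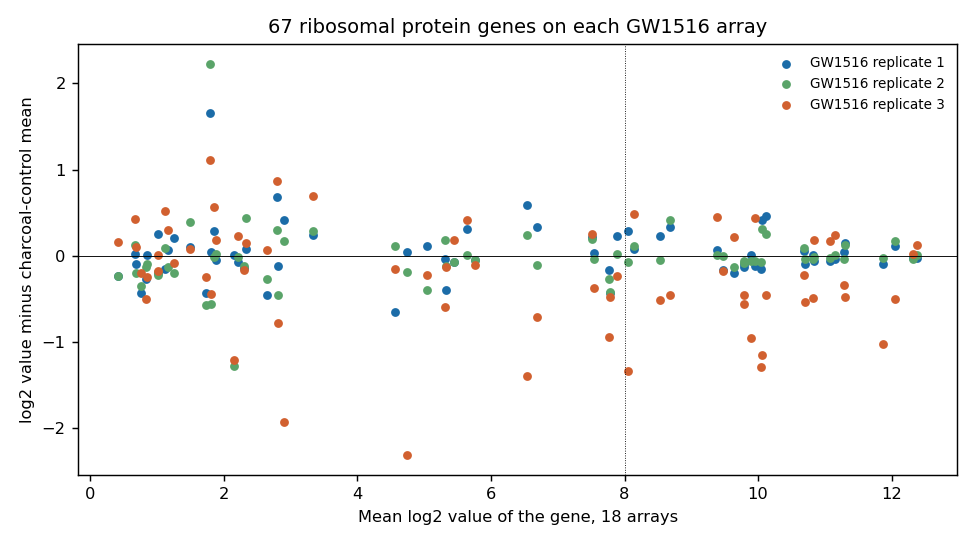
Log2 value of each of the 67 genes on each GW1516 array minus the charcoal-control mean (vertical axis), against the gene's mean over all 18 arrays; the dotted line marks a mean of 8. To the right of it replicates 1 and 2 lie near 0 (medians -0.01 and -0.02) and replicate 3 has a median of -0.45.

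Palmitate called no member (0 of 67, against 0.681% of all genes), with 6 at an unadjusted p under 0.05 (8.96%, against 7.0%). Of the 6, 5 were higher and 1 lower, against 1052 lower of 1553 over all genes. The differences leaned upward: the median change was 0.05 (-0.00 over all genes) and 43 of the 67 differences were positive, against 10946 of 22180 over all genes. Palmitate arrays lay wholly above the full-medium controls for 16 members (23.9%, against 6.46% of all genes) and wholly below for 4 (5.97%, against 8.76%). These shares are a description with no test, over genes read on the same 6 arrays. Rplp1 read 10.34, 10.41 and 10.36 with palmitate, against 10.18, 10.07 and 10.05 in controls (0.27, adjusted p = 1). Rpl21 read 10.87, 10.93 and 10.98, against 10.62, 10.67 and 10.64 (0.28, adjusted p = 0.419). Rpsa read 9.89, 9.90 and 10.02, against 9.77, 9.79 and 9.83 (0.14, adjusted p = 0.994). Rps6 read 12.29, 12.32 and 12.29, against 12.37, 12.30 and 12.31 (-0.03, adjusted p = 1). The interval stayed within 1.5-fold of no difference for 52 of the 67.

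Direct comparison of the ligands, at matched dose, time and medium, found no member past the test in any of the 3 pairs. For retinoic acid minus TTNPB 6 members had an unadjusted p under 0.05 (8.96%, against 7.27% of all genes; 0 of 67 called, against 0.153%), and retinoic acid arrays lay wholly below TTNPB arrays for 17 members (25.4%, against 6.51% of all genes) and wholly above for 5 (7.46%, against 9.64%). The smallest p was that of Rpl32, at 10.74, 10.68 and 10.88 with retinoic acid, against 10.98, 11.02 and 11.05 with TTNPB; the difference was -0.25 (95% interval -0.38 to -0.11, adjusted p = 0.216). For GW1516 minus retinoic acid 7 members had an unadjusted p under 0.05 (10.4%, against 9.30%; 0 called, against 0.352%). For GW1516 minus TTNPB 22 had one (32.8%, against 10.5%), and 0 were called (against 0.0676%). Of the 22, 17 were lower, against 1061 of 2324 over all genes. GW1516 replicate 3, which read low for the bright members, bears on these counts. Without it 18 members had an unadjusted p under 0.05 (26.9%, against 11.3%). Of the 18, 11 were lower, against 1421 of 2508 over all genes. The interval of the difference stayed within 1.5-fold of no difference for 51 members between retinoic acid and TTNPB, 46 between GW1516 and retinoic acid and 43 between GW1516 and TTNPB.

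Paralog pairs, which differ in tissue use, gave no call in any ligand or palmitate comparison. Rpl22 and its paralog Rpl22l1 averaged 2.60 and 6.36 with retinoic acid, against 2.54 and 6.35 in charcoal controls. Rpl3 and Rpl3l averaged 9.95 and 0.98, against 9.99 and 1.10. Rpl39 and Rpl39l averaged 1.40 and 1.89, against 1.47 and 1.62. Rps27 and its paralog Rps27l, a known p53 target, averaged 2.38 and 5.01 with retinoic acid, against 2.39 and 5.32. Rps27l differed by -0.31 with retinoic acid, -0.40 with TTNPB and -0.17 with GW1516 (adjusted p = 0.425, 0.404 and 0.710). Rps27 had the highest SE of the family, 0.43, followed by Rpl7l1, at 0.42. Rps4x differed by -0.03 with retinoic acid (adjusted p = 0.946), and Rps4l and Rpl10l were not above background in either medium.

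Which probe set stands for a gene changed some calls. With the brightest probe set among the gene's own chromosome in place of the brightest of all, a choice made after the data were seen, 6 of 63 measured members passed the test with retinoic acid (5.33% of all genes): Rps23 rose, and Rps3, Rpl21, Rpl29, Rpl35 and Rps18 fell. With GW1516 it was 5 of 63 (2.59% of all genes), with Rps23 up and Rps3, Rpl21, Rpl29 and Rpl3 down. TTNPB and palmitate again gave none. On this probe set Rpl21 read 1.72, 1.46 and 2.25 with retinoic acid and 2.07, 1.61 and 1.24 with GW1516, against 2.54, 3.14 and 2.95 in charcoal controls. The differences were -1.07 (adjusted p = 0.0185) and -1.24 (adjusted p = 0.0151), whereas on the brightest Rpl21 probe set, numbered among chromosome 15 although the gene is on chromosome 5, they were 0.14 and -0.06.

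Rpl29 showed the same split. On the probe set among its own chromosome 9 it read 5.48, 5.23 and 5.57 with retinoic acid and 5.17, 5.49 and 5.35 with GW1516, against 5.95, 5.92 and 5.98 in charcoal controls, with no overlap. The falls were 0.52 and 0.62 on the log2 scale, as differences of -0.52 (adjusted p = 0.0139) and -0.62 (adjusted p = 0.00938). On its brightest probe set, among chromosome 1, Rpl29 differed by 0.04 and -0.38 (adjusted p = 0.947 and 0.237). Rpl35 differed by -0.75 with retinoic acid on its own-chromosome probe set (adjusted p = 0.0157) and by -0.05 on the brightest. Rpl3 differed by -1.10 with GW1516 on its own-chromosome probe set (adjusted p = 0.0371) and by 0.09 on the brightest. Rps18 differed by -0.54 with retinoic acid on its own-chromosome probe set (adjusted p = 0.0492) and by -0.17 on the brightest. The probe sets of these genes thus differ in size and call. Among the calls, those of Rpl21 and Rpl29 with retinoic acid and of Rpl3 with GW1516 also differ in sign. For Rpl3 with GW1516 that sign rests on replicate 3. On the brightest probe set its arrays differed from the control mean by -0.11, -0.06 and 0.44, in replicate order. On the own-chromosome probe set they read 4.53, 4.37 and 3.07, against 4.95, 5.19 and 5.12 in charcoal controls. Replicate 3 also stood apart on the brightest probe sets of Rpl21 (0.15, 0.13 and -0.47) and Rpl29 (-0.095, -0.0185 and -1.02).

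**Figure D5:**
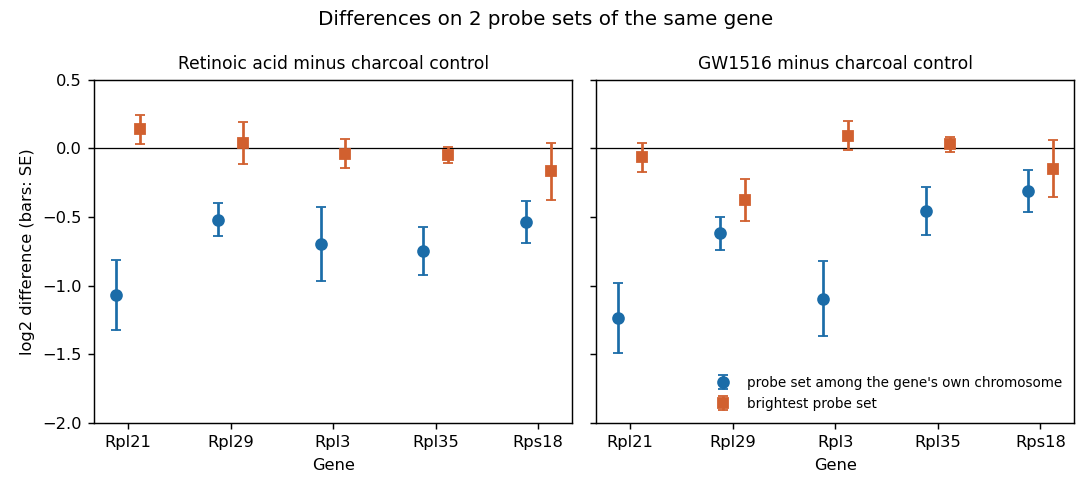
Log2 difference with retinoic acid (left) and GW1516 (right) from the charcoal control for the 5 genes called on the own-chromosome probe set but not on the brightest; circles are the own-chromosome probe set, squares the brightest, and bars the SE. All 10 circles lie below 0, while the squares lie between -0.38 and 0.14. The genes were picked for a fall called on the own-chromosome probe set in either comparison, so this contrast is partly set by the choice.

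Genes that work around the ribosomal proteins were counted in lists. Of 16 measured further TOP mRNA genes of 19 listed, none passed the test with retinoic acid or TTNPB. Over all genes 5.29% and 1.26% did. Of the 16, Eif3f rose with GW1516 (by 0.43, adjusted p = 0.0446 by limma), while 1.89% of all genes rose. With palmitate 1 rose, while 0.681% of all genes passed in either direction. The palmitate gene was Eif3e, an initiation factor subunit, at 4.90 ± 0.24 with palmitate, against 4.02 ± 0.10 in full-medium controls (SD, n = 3 each), a difference of 0.88 (adjusted p = 0.00158 by limma). Elongation factor Eef1a1 differed by 0.03 with retinoic acid and 0.07 with GW1516 (adjusted p = 0.861 and 0.454). Of 14 measured mTORC1 and LARP1 genes, the translation repressor gene Eif4ebp1 rose by 0.33 with retinoic acid and with GW1516 (adjusted p = 0.00952 and 0.0202), and Larp1 fell by 0.34 with retinoic acid (adjusted p = 0.0443). Over all genes 3.82% rose and 1.47% fell with retinoic acid, and 1.89% rose with GW1516.

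Of 13 measured chaperones and importers of ribosomal proteins, 2 fell and 2 rose with retinoic acid (1.47% and 3.82% of all genes). Heatr3, a carrier of RPL5, averaged 5.09 ± 0.13 with retinoic acid and 4.93 ± 0.14 with TTNPB, against 5.84 ± 0.07 in charcoal controls (SD, n = 3 each), and fell in both (adjusted p = 0.00244 and 0.00158 by limma). Grwd1, a chaperone of RPL3, fell by 0.66 with retinoic acid (adjusted p = 0.00537). The importer genes Ipo7 and Tnpo1 rose by 0.65 and 0.62 with retinoic acid and by 0.75 and 0.52 with GW1516. With palmitate Ipo9 fell by 0.40 (adjusted p = 0.0106). Over all genes 1.89% rose with GW1516, and 1.26% with TTNPB and 0.681% with palmitate passed in either direction.

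Of 10 promoter factors, 3 fell and 1 rose with retinoic acid (1.47% and 3.82% of all genes). Myc, a driver of ribosome production, averaged 7.41 ± 0.11 with retinoic acid and 7.35 ± 0.16 with TTNPB, against 7.95 ± 0.08 in charcoal controls (SD, n = 3 each). Its difference was -0.54 with retinoic acid (adjusted p = 0.0173) and -0.59 with TTNPB (adjusted p = 0.0284). Its partner Max fell by 0.73 and 0.72 in the same comparisons (adjusted p = 0.000655 and 0.00246). Yy1 fell by 0.41 with retinoic acid, and Taf1 rose by 0.80 with retinoic acid and by 0.92 with GW1516. Over all genes 1.26% passed in either direction with TTNPB and 1.89% rose with GW1516. The last list held genes around p53 and its control by free RPL5 and RPL11. A place on it does not make a gene a step of that control. Of the 6 measured, Hexim1 fell with retinoic acid, TTNPB and GW1516 (-1.08, -0.88 and -0.84). Cdkn1a fell by 0.29 with retinoic acid and Mdm4 rose by 0.65 with GW1516. Over all genes 1.47% fell with retinoic acid and 1.26% passed in either direction with TTNPB. With GW1516 1.89% rose and 0.681% fell.

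The mitochondrial ribosome has its own protein genes. Of 71 measured, 3 fell with retinoic acid (Mrpl12, Mrpl14 and Mrpl49, by 0.45, 0.66 and 0.33, while 1.47% of all genes fell). With GW1516 Mrpl46 alone fell, while 0.681% of all genes fell. It read 1.23 with GW1516, under that group's background of 1.30, against 1.72 in charcoal controls, whose background was 1.31. None passed the test with TTNPB or palmitate, while 1.26% and 0.681% of all genes did. The median change of the 71 was -0.050 with retinoic acid, -0.011 with TTNPB, -0.172 with GW1516 and 0.045 with palmitate. The cytosolic family's medians were -0.045, -0.001, -0.105 and 0.047 in that order. Of 18 measured aminoacyl-tRNA synthetase genes, Eprs and Wars rose by 0.65 and 0.32 with retinoic acid, while 3.82% of all genes rose. None passed the test in the TTNPB, GW1516 or palmitate comparison (1.26%, 2.57% and 0.681% of all genes).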

How the data were processed

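The arrays were hybridised with biotinylated cRNA, per the labels' protocols. The deposited log2 values cover 41345 probe sets. Partek is named in the submitters' processing notes; for its version, normalization and summary method the sources used here give nothing. The values are taken as log2 from their range. The number of arrays limits the precision. Probe sets with 1 gene symbol (23521; 1814 had several and 16010 none) were kept, symbols were updated by Entrez number for 23328 probe sets (GRCm38.p6), and the probe set with the highest mean over 18 arrays stood for a gene. No gene was filtered out. Group means were fitted over all 18 arrays with limma 3.58.1 (R 4.3.3; eBayes with a trend, 12 residual degrees of freedom), 2-sided, with Benjamini-Hochberg adjustment over all 22180 genes of a comparison and a threshold of 0.05, which is the test meant throughout. The code was tested on simulated data. Members, gene lists, named genes and the background definition were chosen with earlier results of these data known. Named were the members past the threshold, Rps23, Rpsa, Rplp0 to Rplp2, Rps6, Rpl5, Rpl11, the paralogs, the highest and lowest members and those under background; other members were picked after their values were seen. Promoters are RefSeq's. Figures used Python 3.11.15 and matplotlib 3.10.9. Alternatives were the sample set, a replicate block, no trend, 2 scalings, a filter on dim genes, other probe set choices and each array left out.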

Additional observations from a re-analysis of the deposited data

How the results depend on the processing

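The count of members past the test was 2 with retinoic acid. It became 0 with arrays centred on their medians (3.38% of all genes passed) and 0 when only same-serum arrays were fitted (4.22%), 6 with only the groups of the comparison (adding Rpl21, Rpl28, Rps19 and Rpsa; 8.35%), 6 with own-chromosome probe sets (5.33%), and 0 to 1 with 1 array left out. With GW1516 the count of 2 became 5 after quantile normalization (3.66%), 1 with centred arrays (1.2%), 4 without dim genes (7.06%), 5 with own-chromosome probe sets (2.59%), 0 with only the groups of the comparison (where 3 of all 22180 genes passed), 1 with arrays of the same serum (1.86%), and 1 to 6 with 1 array left out. The count of 0 with TTNPB became 2 (Rpl28 and Rpl32, with 2.25% of all genes), and that for retinoic acid minus TTNPB 5 (1.12%), with only the groups of the comparison. The other counts of 0 stayed 0 in every setting run, also with 1 array left out. They say little, since few genes passed there: 0.681% for palmitate, 0.352% for GW1516 minus retinoic acid and 0.0676% for GW1516 minus TTNPB. With only the groups of the comparison, 1, 2 and 0 of all 22180 genes passed in that order. The family's median change with retinoic acid, -0.045, was 0.025 with centred arrays (0.042 over all genes), -0.076 with the mean of all probe sets, -0.091 with own-chromosome probe sets and -0.066 to -0.019 with 1 array left out. With TTNPB, -0.001, it was -0.086 with own-chromosome probe sets and -0.012 to 0.033 with 1 array left out. The value 0.033 and the -0.019 came without charcoal control replicate 3. Rps23 with TTNPB ranged between -0.0044 without charcoal control replicate 2 and 0.8116 without replicate 3. Rps23 had an adjusted p of 0.0539 with centred arrays and 0.0880 with arrays of the same serum for retinoic acid, and 0.305 with only the groups of the comparison and 0.0560 with the same serum for GW1516. Rps3 had 0.0665 with the same serum for retinoic acid and 0.285 with only the groups for GW1516. Own-chromosome probe sets and a restriction to members above background were chosen after seeing the data. The cause of these shifts was not tested. Of 60 values of Rps23 and Rps3 in their called comparisons under other settings, 41 kept the call and 19 lost it. Each of the genes has 1 probe set, so other probe set choices left its difference unchanged. Those settings are all among the 41, which therefore overstates how well the calls held. Of 30 values of Rps23 with TTNPB and palmitate, 1 reversed. The labels' replicate numbers showed no steady pairing of the samples (correlations of deviations between -0.28 and 0.21), but 3 arrays per group cannot exclude it. With the number as a replicate block the counts stayed at 2, 0, 2 and 0 for retinoic acid, TTNPB, GW1516 and palmitate, with Rps23 at an adjusted p of 0.0433 and 0.0256 and Rps3 at 0.0393 and 0.00831 for retinoic acid and GW1516. Signal over background limits what can be said of Rps23 and of members that read near background.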
